A study of Mus musculus with 24 samples.

Results

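Astrocytes and their developmental precursors, the radial glia, were examined through 10 genes in brain RNA of 2N mice and of Ts1Cje mice. The genes were every one of a list of 10 that the platform annotation names on either of 2 Affymetrix array designs, called array A (MGU74A) and array B (MGU74B) here, out of 13674 genes that an array names on a probe set of their own. Fabp7, Vim and Slc1a3 were grouped as the 3 radial glia genes, and Gfap, Aldoc, Glul, Slc1a2, Aqp4, Apoe and Clu as the 7 mature astrocyte genes. They were measured by 21 probe sets, 14 on array A for 9 genes and 7 on array B for 5 genes, and each probe set was kept apart. The genes were chosen by name, with earlier results of these data known, and Slc1a3 was represented on array B alone.

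Each array design was hybridised with 6 samples labelled 2N, the euploid controls, and 6 labelled Ts1Cje, which gave 24 arrays. Ts1Cje is a mouse model of Down syndrome. It carries an additional copy of the distal part of mouse chromosome 16, translocated onto chromosome 12, with Sod1 disrupted on that copy. None of the 10 genes lies on chromosome 16 or on chromosome 12 (0 of 10 matched genes on each), so none lies in the segment with the additional copy. The labels give brain as the tissue and neither region, age nor sex, and they do not say whether the numbered samples came from separate animals, so each p here reflects only how far these samples scatter, which may be technical. Fewer cells of a type and less RNA per cell cannot be told apart in RNA from whole tissue.

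Radial glia line the ventricles of the developing brain, divide to give neurons and later astrocytes, and serve as a scaffold along which new neurons migrate. Fabp7 and Vim are typical of that stage, and Slc1a3 appears in radial glia and stays on in astrocytes. Maturing astrocytes take up glutamate and potassium released by neurons, turn glutamate into glutamine, supply lipids carried by lipoproteins, and wrap blood vessels with endfeet that hold water channels. Gfap is made in fibrous and reactive astrocytes. The question put by the 2 genotypes is whether the additional chromosome segment goes with a different level of these genes in brain.

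The regulatory sequence in front of 3 of the genes is shown because it sets a radial glia gene beside a mature astrocyte gene and beside Aldoc, whose samples divided by their number, as described further on. Notch signalling, which acts through the DNA-binding protein RBPJ, is known to maintain radial glia and to act on Fabp7, and STAT3 is known to act on Gfap when astrocytes form. The sequences are RefSeq's for GRCm38.p6, 250 bases up to the base before the start site, 5′ to 3′ on the gene's strand. Capitals mark matches on either strand to the RBPJ core TGGGAA and to the STAT palindrome TTCNNNGAA.
Fabp7, chr10:57784673-57784922, plus strand: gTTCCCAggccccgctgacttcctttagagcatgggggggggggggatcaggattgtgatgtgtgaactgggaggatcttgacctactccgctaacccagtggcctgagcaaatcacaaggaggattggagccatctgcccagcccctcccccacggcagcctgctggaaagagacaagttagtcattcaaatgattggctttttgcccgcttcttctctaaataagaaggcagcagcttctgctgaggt
Gfap, chr11:102897201-102897450, minus strand: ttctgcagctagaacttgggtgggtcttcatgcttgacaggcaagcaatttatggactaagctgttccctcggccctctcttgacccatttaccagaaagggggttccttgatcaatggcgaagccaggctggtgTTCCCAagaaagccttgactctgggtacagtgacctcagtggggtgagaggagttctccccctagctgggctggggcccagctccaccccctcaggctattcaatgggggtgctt
Aldoc, chr11:78323948-78324197, plus strand: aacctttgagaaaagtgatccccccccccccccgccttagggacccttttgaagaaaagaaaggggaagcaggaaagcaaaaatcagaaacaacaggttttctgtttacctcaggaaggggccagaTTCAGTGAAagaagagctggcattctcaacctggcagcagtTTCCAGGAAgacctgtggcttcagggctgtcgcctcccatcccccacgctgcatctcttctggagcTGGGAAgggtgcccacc
The RBPJ core matched once in each of the 3 windows, at position -249 for Fabp7, -115 for Gfap and -17 for Aldoc, counted back from the start site to the leftmost base of the match. The STAT palindrome matched at -124 and -83 in the Aldoc window shown and nowhere in those of Fabp7 and Gfap. The other Aldoc window, not shown, held no such match. Sequence further from the start site than these 250 bases was not searched. Of the 32851 promoter windows of that length in the table, 21.6% held the RBPJ core and 7.02% the STAT palindrome. Among 11 windows listed for 8 of the 10 genes, 4 held the RBPJ core (Fabp7, Gfap and both Aldoc windows) and 2 the STAT palindrome (Aldoc and Slc1a3). The letters TATAAA, those of the TATA box, were found on either strand in 3 of them, against 12.4% of all windows. They lay at -32 for Vim, at -100 and -96 for Apoe and at -161 for Slc1a3, and position was not a condition of the match. A match is a description of the letters and not a bound site.

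The values are normalised intensities, which are brightness values on a linear scale made comparable between arrays by giving all arrays of a design the same distribution. A probe set's intensity depends on its probes, so levels were compared between samples and never between probe sets. The deposited arrays differed in brightness, with trimmed means up to 2.10-fold apart before normalisation on array A and up to 1.86-fold apart on array B. The lowest rank correlation of 2 arrays was 0.914 for array A and 0.883 for array B, and identical pairs numbered 0. Differences are Ts1Cje minus 2N on the log2 scale, from limma fitted over all tested probe sets of a design, 9316 for array A and 9308 for array B, and a probe set passed with an adjusted p under 0.05. On array A 9 of them passed, or 0.0966%, and array B gave 6, or 0.0645%. Over all tested probe sets the median difference was -0.0042 (array A) and -0.0034 (array B).

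No radial glia or mature astrocyte gene passed the test. All 10 genes had a tested probe set, and 19 of the 21 probe sets were bright enough to be tested, 13 of array A and 6 of array B. Their differences ran from -0.55 to 0.38 with a median of 0.0089, and 11 lay above 0 and 8 below. In none of the 19 did the 6 samples of a genotype lie wholly above or below the 6 of the other, which occurred for 0.301% of the probe sets of array A and 0.247% of those of array B. Glul was the single gene with an unadjusted value under 0.05, on 1 of its 4 tested probe sets, where 3.65% of array A and 4.28% of array B lay under that level. The 95% interval of the difference stayed inside 1.5-fold in both directions for 14 of the 19, which were 9 of 13 on array A, against 55.1% of all its tested probe sets, and 5 of 6 on array B, against 46.8%. The 5 whose intervals reached past 1.5-fold were those of Vim, Gfap 94143_at, Slc1a2 96202_at, Glul 161826_r_at and Glul 117284_at. Among them Glul 161826_r_at had an SE of 0.14 around a difference of 0.38, so its interval was not a wide one.

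**Figure D1:**
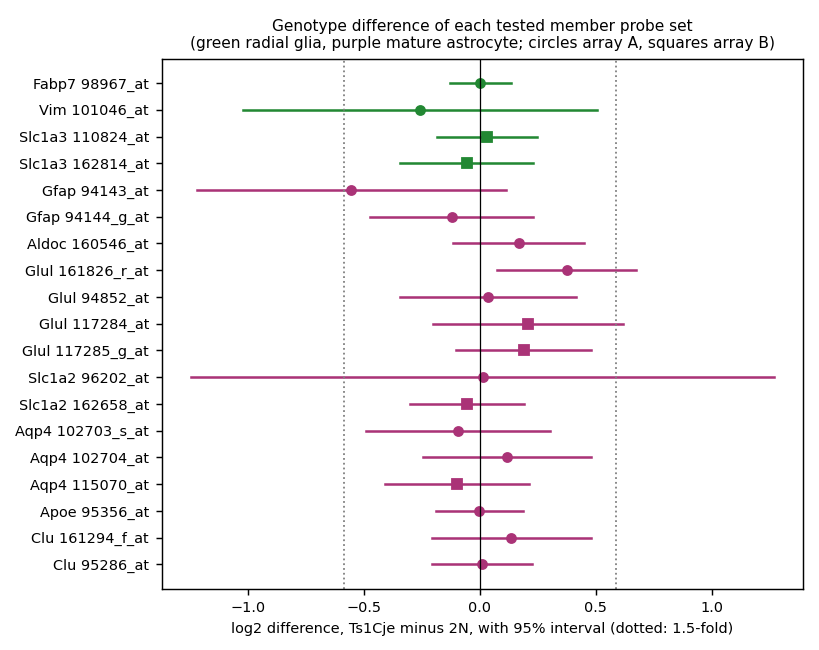
Difference between genotypes for the 19 tested probe sets, as log2 of Ts1Cje over 2N (horizontal axis) with its 95% interval (line), 6 samples of each genotype. Green marks radial glia genes, purple mature astrocyte genes, circles array A and squares array B, and dotted lines mark 1.5-fold; the interval of 1 probe set, Glul 161826_r_at from 0.08 to 0.67, does not include 0, and none passed after adjustment.

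Among the radial glia genes, Fabp7 was measured most precisely. Fabp7 codes for the brain fatty acid-binding protein, which carries long-chain fatty acids inside radial glia. Probe set 98967_at of array A had a lowest, median and highest intensity of 966, 1088 and 1193 in 2N and of 982, 1098 and 1185 in Ts1Cje. The groups covered the same range, with 3 of 6 Ts1Cje samples above the 2N median. Their means were 1086 ± 75.8 (SD, n = 6) and 1088 ± 79.1 (SD, n = 6), a log2 difference of 0.0022 with a standard error (SE) of 0.063 (limma, adjusted p = 0.998). The 95% interval of the ratio ran from 0.913 to 1.10. The coefficient of variation was 6.98% in 2N and 7.27% in Ts1Cje.

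Vim codes for vimentin, the intermediate filament protein of radial glia and of immature astrocytes, which endothelial and meningeal cells also make. Its probe set 101046_at of array A was dim. The lowest, median and highest values were 8.60, 12.6 and 13.5 in 2N and 3.05, 11.2 and 20.0 in Ts1Cje. Both the lowest and the highest of the 12 values belonged to Ts1Cje, replicates 2 and 1. The means of 11.8 ± 1.99 and 11.2 ± 5.54 (SD, n = 6 each) gave a log2 difference of -0.26 (SE 0.36, interval -1.02 to 0.51, adjusted p = 0.991). Leaving out Ts1Cje replicate 2 turned the difference to 0.08, so Vim has no settled direction here.

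Slc1a3 codes for GLAST, the glutamate transporter that radial glia carry and astrocytes keep. Probe set 110824_at of array B gave a lowest, median and highest intensity of 49.4, 56.8 and 63.2 in 2N and of 51.3, 55.4 and 68.3 in Ts1Cje. The second, 162814_at, gave 35.3, 46.9 and 51.8 in 2N and 32.4, 43.3 and 55.9 in Ts1Cje. On both probe sets the groups overlapped over most of their range, and 2 of 6 Ts1Cje samples lay above the 2N median. The log2 differences were 0.03 (SE 0.10, interval -0.18 to 0.24) and -0.06 (SE 0.14, interval -0.34 to 0.23), each with an adjusted p of 0.997.

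**Figure D2:**
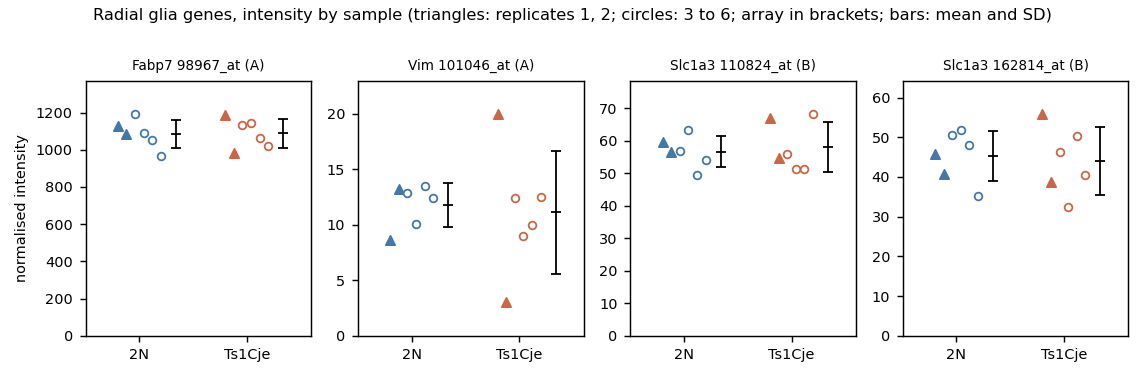
Normalised intensity (vertical axis, linear, from 0) of the 4 probe sets of the radial glia genes in each sample, by genotype; filled triangles are replicates 1 and 2, open circles replicates 3 to 6, and the bar beside them is the mean ± SD over 6 samples. Fabp7 lies between 966 and 1193 in all 12 samples, and Vim has its lowest (3.05) and highest (20.0) value in Ts1Cje.

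Gfap, the intermediate filament protein of astrocytes, was read by a pair of probe sets on array A made from 1 source sequence. The dimmer, 94143_at, had a lowest, median and highest value of 7.05, 10.8 and 18.1 in 2N and of 4.87, 7.09 and 12.9 in Ts1Cje. Of the 6 Ts1Cje samples 3 lay below every 2N sample, and 1, replicate 5, lay above the 2N median. Its means were 11.2 ± 3.97 and 7.63 ± 2.74 (SD, n = 6 each), and its log2 difference of -0.55 (SE 0.32, interval -1.22 to 0.11, adjusted p = 0.991) was the lowest of the 19 and did not pass. The brighter, 94144_g_at, had 26.7, 33.0 and 36.8 in 2N and 21.0, 31.6 and 38.8 in Ts1Cje, with a difference of -0.12 (SE 0.17, interval -0.47 to 0.23, adjusted p = 0.991). There 3 Ts1Cje samples lay above the 2N median and 2 below the lowest 2N sample.

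Aldoc codes for aldolase C, the glycolytic enzyme of astrocytes. Probe set 160546_at of array A had a lowest, median and highest intensity of 246, 272 and 343 in 2N and of 243, 306 and 446 in Ts1Cje. The 2 highest samples were Ts1Cje replicates 1 and 2, and the other 4 Ts1Cje samples lay within the 2N range, apart from replicate 4 just below it. The means were 285 ± 42.6 and 325 ± 77.6 (SD, n = 6 each), with a log2 difference of 0.17 (SE 0.13, interval -0.12 to 0.45, adjusted p = 0.991). Without Ts1Cje replicate 1 the difference was 0.07. A further Aldoc probe set, 105965_at on array B, was at the lower limit of 1.13 in 3 samples of each genotype and was not tested (2.15 ± 1.52 in 2N and 1.67 ± 1.07 in Ts1Cje, SD, n = 6 each).

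Glul codes for glutamine synthetase, which makes glutamine from the glutamate that astrocytes take up. Its probe set 161826_r_at of array A, for which no source sequence was listed, had the highest difference of the 19. The lowest, median and highest values were 35.9, 54.8 and 63.8 in 2N and 50.6, 69.3 and 79.4 in Ts1Cje. Of the 6 Ts1Cje samples 5 lay above every 2N sample and 1, replicate 4, lay below the 2N median. The means were 53.1 ± 9.23 and 68.6 ± 9.97 (SD, n = 6 each), a ratio of 1.30 and a log2 difference of 0.38 (SE 0.14, interval 0.08 to 0.67), which did not pass after adjustment over the array (limma, adjusted p = 0.991).

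The other Glul probe sets gave smaller values in the same direction. On 94852_at of array A the lowest, median and highest values were 29.1, 32.8 and 51.2 in 2N and 26.3, 36.6 and 47.1 in Ts1Cje, and the difference was 0.04 (SE 0.18, interval -0.35 to 0.42). Array B carried 117284_at (14.8 ± 3.82 in 2N and 16.8 ± 2.56 in Ts1Cje, SD, n = 6 each) and 117285_g_at (24.97 ± 3.83 and 28.4 ± 4.11), which come from 1 source sequence and are not independent. Their differences were 0.21 (SE 0.19, interval -0.20 to 0.62) and 0.19 (SE 0.14, interval -0.10 to 0.48), each with an adjusted p of 0.997. All 4 values lay above 0 in these samples, and 94852_at was below 0 without normalisation (-0.03) and with median scaling (-0.0028). Sums of the 9 measured neuronal markers on array A, which ran from 6117 to 6918 in 2N and from 6664 to 7445 in Ts1Cje, shifted the same way. On array B the sums of 4 such markers ran from 1158 to 1329 and from 1047 to 1353, with a median difference of -0.01. Their part in the Glul values was not tested.

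Slc1a2 codes for GLT-1, the main glutamate transporter of mature astrocytes. On array B, 162658_at had a lowest, median and highest intensity of 116, 143 and 163 in 2N and of 97.7, 134 and 175 in Ts1Cje. The Ts1Cje samples held both ends of the range. The means of 139 ± 17.0 and 135 ± 24.9 (SD, n = 6 each) gave a difference of -0.05 (SE 0.12, interval -0.30 to 0.19, adjusted p = 0.997). On array A, 96202_at varied 8.60-fold between samples, from 2.10 to 18.1 in 2N and from 2.56 to 16.5 in Ts1Cje. Its interval, -1.25 to 1.27, holds both a doubling and a halving.

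Aqp4 is the water channel of astrocyte endfeet. Probe set 102704_at of array A ran from 31.5 through a median of 38.6 to 53.9 in 2N and from 32.9 through 40.8 to 61.5 in Ts1Cje, and its difference was 0.12 (SE 0.17, interval -0.25 to 0.48, adjusted p = 0.991). That value was 0.01 without Ts1Cje replicate 1. On 102703_s_at of the same array the means were 22.9 ± 4.66 and 21.2 ± 3.71 (SD, n = 6 each) and the difference -0.10 (SE 0.19). Array B measured 115070_at at 59.6 ± 11.7 in 2N and 55.9 ± 12.1 in Ts1Cje (SD, n = 6 each), a difference of -0.10 (SE 0.15, interval -0.41 to 0.21, adjusted p = 0.997). On each of the 3 probe sets the genotypes overlapped, and on 115070_at 2 Ts1Cje samples lay below every 2N sample.

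Apoe and Clu code for apolipoprotein E and clusterin, the lipid carriers that astrocytes release. Apoe 95356_at of array A had a lowest, median and highest intensity of 847, 971 and 1080 in 2N and of 786, 1002 and 1080 in Ts1Cje. Quantile normalisation gives equal values to equal ranks, so the highest value is the same in both genotypes. The means of 969 ± 105 and 969 ± 123 (SD, n = 6 each) differed by -0.0029 (SE 0.089, interval -0.19 to 0.18, adjusted p = 0.998). A second Apoe probe set, 161321_i_at, was at the lower limit of 1.47 in 2 samples of each genotype and was not tested (4.59 ± 3.02 and 3.59 ± 2.00).

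Clu 95286_at had 91.5, 109 and 124 as its lowest, median and highest value in 2N and 97.8, 103 and 132 in Ts1Cje. The difference was 0.0089 (SE 0.10, interval -0.21 to 0.22, adjusted p = 0.998). Clu 161294_f_at gave 35.2 ± 7.0 and 38.4 ± 6.2 (SD, n = 6 each), a difference of 0.14 (SE 0.16, interval -0.21 to 0.48, adjusted p = 0.991). For Fabp7, Apoe and Clu the better measured probe set gave the narrowest intervals of the ratio among the mature and radial glia genes of array A, 0.913 to 1.10, 0.877 to 1.14 and 0.866 to 1.17.

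**Figure D3:**
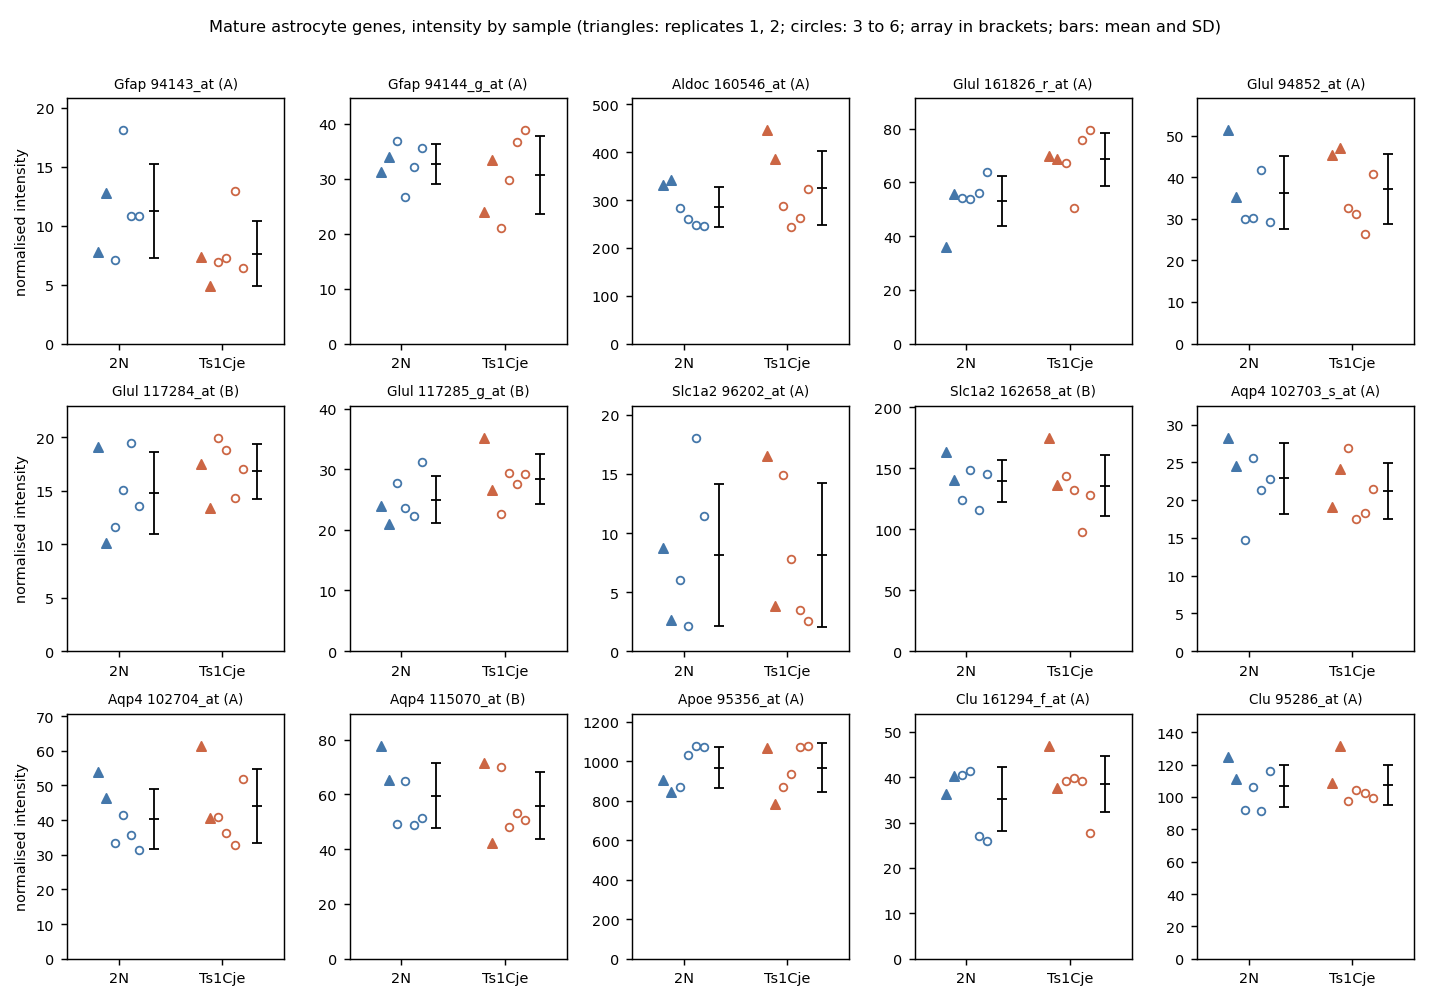
Normalised intensity (vertical axis, linear, from 0) of the 15 tested probe sets of the mature astrocyte genes in each sample, by genotype; filled triangles are replicates 1 and 2, open circles replicates 3 to 6, and the bar is the mean ± SD over 6 samples. For Glul 161826_r_at 5 of 6 Ts1Cje samples lie above the highest 2N sample, and for Aldoc the triangles of both genotypes (332 to 446) lie above all circles (243 to 324).

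Where an array held a pair of probe sets for 1 gene, the difference between their genotype differences was put to an exact permutation test (two-sided) with all 924 ways to assign the 12 samples. Array A held such pairs for Aqp4, Clu, Gfap and Glul, and array B for Glul and Slc1a3, 6 in all. The differences ran from -0.43 for Gfap to 0.34 for Glul on array A. Gfap moved to -0.22 without 2N replicate 4 and Glul to 0.12 without 2N replicate 1. None was larger than the spread between samples (exact permutation test, p from 0.227 to 0.933, adjusted over the 6 pairs from 0.597 to 0.933), where the smallest p the design allows is 0.0022. A p of that size does not show that the probe sets act alike.

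The balance of the 2 groups of genes was described as the mean log2 intensity of the radial glia genes minus that of the mature astrocyte genes, each gene by its brightest probe set. On array A, with 2 radial glia genes (Fabp7 and Vim) and 7 mature astrocyte genes, it was 0.60 ± 0.21 in 2N (SD, n = 6, from 0.31 to 0.80) and 0.39 ± 0.42 in Ts1Cje (SD, n = 6, from -0.47 to 0.65). The low end in Ts1Cje was replicate 2, whose Vim value was 3.05, and without it the difference between genotypes moved from -0.21 to -0.03. On array B, with Slc1a3 against Slc1a2, Aqp4 and Glul, the 2N balance was -0.05 ± 0.10 and that of Ts1Cje -0.03 ± 0.16 (SD, n = 6 each). The 0 point of this measure depends on the probe sets and has no meaning of its own. By count, 2 of 4 radial glia probe sets and 9 of 15 mature astrocyte probe sets lay above 0.

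Samples numbered 1 and 2 differed from those numbered 3 to 6 in both genotypes in earlier results of these data, and the labels do not say what the numbers stand for. Aldoc 160546_at followed that division. It was 332 to 446 in the 4 samples numbered 1 or 2 and 243 to 324 in the other 8, with means of 377 ± 51.6 (SD, n = 4) and 270 ± 27.6 (SD, n = 8). The groups did not overlap, which was so for 1.36% of the tested probe sets of array A in this direction, and for 1.51% on array B, where no astrocyte or radial glia gene did so. The log2 difference between the numbers was 0.48, made up of 0.38 within 2N and 0.58 within Ts1Cje. The genotype difference of Aldoc was 0.30 within replicates 1 and 2 and 0.10 within replicates 3 to 6.

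Glul 94852_at (0.45), Aqp4 102704_at (0.42) and Slc1a2 162658_at (0.25) were also brighter on average in replicates 1 and 2 in both genotypes, as were both Clu probe sets (0.22 and 0.23), and all of these overlapped. The other Glul probe sets stood at -0.15 (161826_r_at), -0.13 (117284_at) and -0.02 (117285_g_at). Fabp7 stood at 0.02, Apoe 95356_at at -0.16 and Vim at -0.33. In all, 7 of the 13 array A probe sets and 4 of the 6 array B ones lay above 0, where 49.0% and 50.7% of all tested probe sets did. Other measures were also set against the numbers. On array A the summed neuronal markers ran from 6117 to 6690 in replicates 1 and 2 and from 6801 to 7445 in replicates 3 to 6, without overlap. A sum weighs bright markers most, and the brightest, Tubb3 and Stmn2, stood at -0.12 and -0.23. Of the 9 markers, 3 lay above 0, which is higher in replicates 1 and 2. The summed neuronal markers of array B went the other way from the array A sum and overlapped, 1185 to 1353 against 1047 to 1225. Endothelial markers on array A summed to 442 to 488 and 375 to 461, and microglial markers to 311 to 384 and 268 to 369, both with overlap. Sums of the oligodendrocyte, choroid plexus, meningeal, ependymal and blood markers of array A overlapped as well. The median deposited intensity of the array B samples was 11.4 to 13.8 in replicates 1 and 2 and 7.90 to 10.3 in the others, while those of array A, which carries the Aldoc probe set, were 14.1 to 19.7 and 11.2 to 21.7. The part of these in the Aldoc values was not tested.

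**Figure D4:**
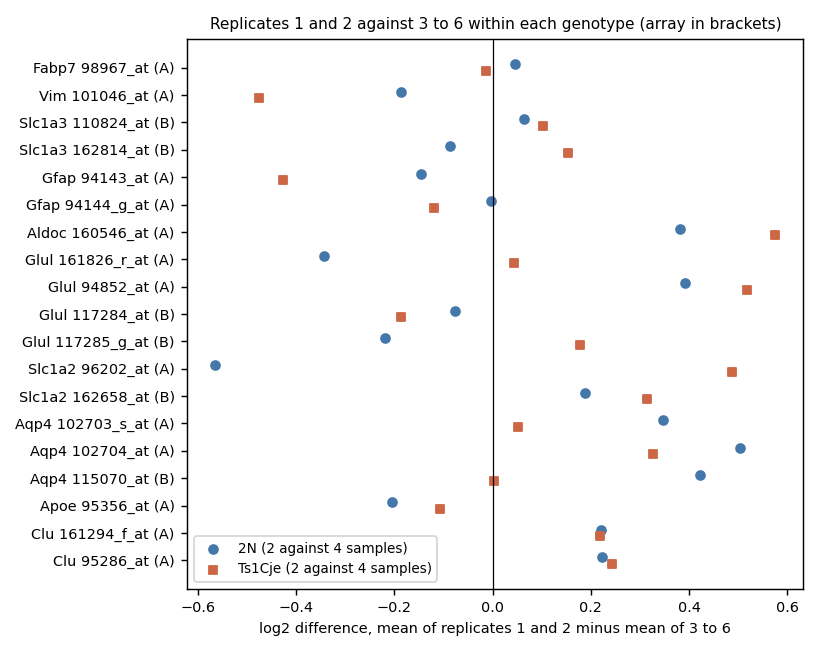
Log2 difference between the mean of replicates 1 and 2 and the mean of replicates 3 to 6 (horizontal axis) for the 19 tested probe sets, within 2N (blue circles, 2 against 4 samples) and within Ts1Cje (orange squares, 2 against 4 samples), array in brackets. Aldoc stands at 0.38 and 0.58, while Fabp7 lies near 0 in both genotypes.

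Other genes of the same cells and pathways were read from 7 lists, 1 probe set a gene on each array. None of their measured genes passed in either direction, on array A or on array B. Of 36 other astrocyte genes, 24 were measured on array A, 13 of them above 0, with a median difference of 0.04. The brightest were Cst3, the protease inhibitor cystatin C, at 0.07 (499 ± 53.5 in 2N and 522 ± 39.1 in Ts1Cje, SD, n = 6 each), and Dbi, which binds acyl-CoA, at 0.20 (SE 0.078, 450 ± 43.8 and 516 ± 47.3, adjusted p = 0.991). On array B, 10 of 15 lay above 0, with a median of 0.02 and Atp1b2, a subunit of the sodium pump, at -0.03 and Cspg5, a proteoglycan, at 0.04. Of 23 other radial glia genes, 17 were measured on array A, 10 above 0 with a median of 0.02. Nfib, a transcription factor that promotes glial fate, stood at 0.15 and the cadherin Cdh2 at -0.04.

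The list of reactive astrocyte genes, those that rise after injury, had 10 of 16 measured on array A, and 7 lay above 0 with a median of 0.18. Its members ranged from -0.95 to 0.66. Stat3, the transcription factor of the STAT family named above, measured 61.5 ± 10.8 against 77.5 ± 10.5 (SD, n = 6 each, 2N first), a difference of 0.34 (SE 0.13, adjusted p = 0.991). Timp1, an inhibitor of metalloproteases, was 36.0 ± 9.74 and 49.8 ± 13.0 (SD, n = 6 each), a difference of 0.47 (SE 0.20, adjusted p = 0.991). Neither passed. On array B 3 genes of the list were measured, with a median of 0.11, and Gfap and Vim, which are also known to rise in reactive astrocytes, lay below 0 on array A (Gfap at -0.55 and -0.12, Vim at -0.26).

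Of the glutamate and glutamine cycle, 10 of 16 genes were measured on array A and 4 lay above 0, with a median of -0.05, and 6 on array B with a median of 0.04. The neutral amino acid transporter Slc1a4 stood at -0.08 and Gad1, which makes GABA from glutamate, at -0.01. Genes of lipoproteins, their receptors and lipid transport numbered 11 of 18 on array A, with 2 above 0 and a median of -0.06, and 5 on array B with a median of -0.02. Lrp1, a receptor for apolipoprotein E, stood at 0.08 and Pltp, which transfers phospholipids, at -0.05. Filament and endfoot genes numbered 11 of 16 with 7 above 0 and a median of 0.03, with the neuronal filament gene Ina at -0.03 and Agrn, a matrix proteoglycan, at 0.03. Of 7 paralogs, relatives of Fabp7, of Aldoc or of the filament genes, 5 were measured on array A with 2 above 0. Aldoa and Fabp5 both stood at -0.06. Over all tested probe sets 48.9% of array A and 49.3% of array B lay above 0.

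**Figure D5:**
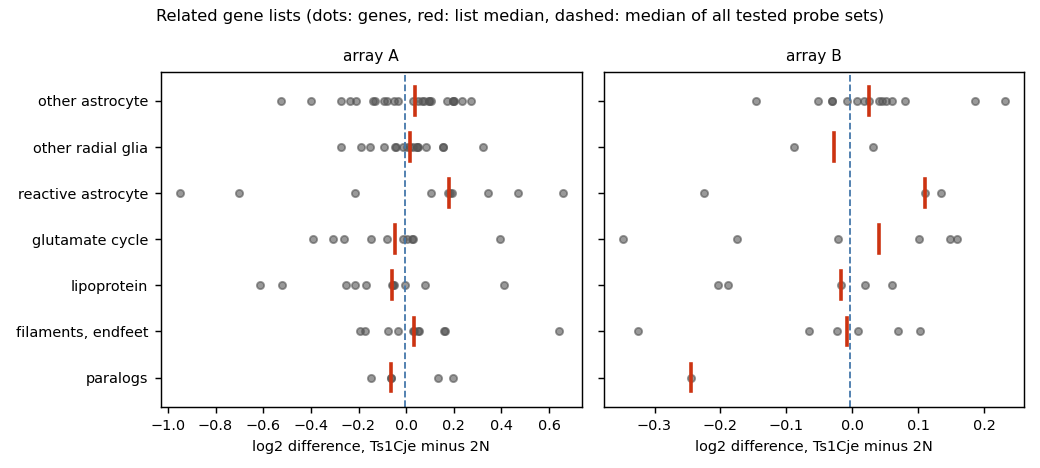
Log2 difference, Ts1Cje minus 2N (horizontal axes, on different scales), of each measured gene (grey dots) of the 7 related lists on array A (left) and array B (right); red bars are list medians and dashed lines the median of all tested probe sets (-0.0042 and -0.0034). No gene passed, and the reactive astrocyte list has the highest median on array A (0.18) and the widest range (-0.95 to 0.66).

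Markers of other cell types in whole brain were measured in the same samples, and none passed. The 9 neuronal markers on array A all lay above 0, with a median of 0.05, and their brightest were Tubb3 at 0.07 and Stmn2 at 0.05. On array B 2 of 4 lay above 0, with a median of -0.01, and Map2 and Syt1 stood at -0.03 and -0.10 there against 0.02 and 0.11 on array A. The 5 oligodendrocyte markers summed to 205 to 252 in 2N and 204 to 252 in Ts1Cje on array A. On array B 3 markers of the list were measured, of which Sox10 alone was also measured on array A. They summed to 62.8 to 88.6 and 86.0 to 105. The brightest, Sox10, stood at 0.46 (named after its value was seen), and on array A it stood at -0.06. On array A, microglial markers (8 genes) summed to 305 to 384 in 2N and 268 to 376 in Ts1Cje. Endothelial and pericyte markers (10 genes) there summed to 381 to 468 and 375 to 488, and choroid plexus markers (3 genes) to 883 to 1244 and 792 to 1041. Meningeal markers (8 genes) on array A summed to 1346 to 1598 and 1234 to 1772, ependymal markers (3 genes) to 107 to 143 and 113 to 160, and blood markers (4 genes, all below 0) to 937 to 1513 and 1015 to 1180. On array B, 3 endothelial and pericyte markers had differences from -1.07 to 0.23 and summed to 30.1 to 44.5 and 32.3 to 42.2. The 1 choroid plexus marker there, Clic6, stood at 0.42 (16.7 to 28.6 and 25.8 to 36.9, named after its value was seen). Only the 10 member genes were checked for their chromosome, so whether a marker such as Clic6 has an additional copy was not examined. The 1 ependymal marker of array B stood at 0.40. Measured markers are those that passed the filter on brightness, so none of them could be at the lower limit in every sample. Dimmer markers were left out, and of 8 oligodendrocyte markers named on array A, 5 were measured.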

How the data were processed

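Total RNA from mouse brain was hybridised to 24 arrays of 2 Affymetrix designs, with 6 samples of each genotype per design. The deposited values are intensities on a linear scale, 1 per probe set and array; the authors' way of summarising probes is not given in the sources used. After 66 control probe sets per design were removed, each design was quantile normalised on its own, because trimmed means (2% trimmed) differed by over 5%. Values under the 10th percentile (1.47 on array A, 1.13 on array B) were raised to it before log2. The filter kept probe sets whose mean reached the 25th percentile (9316 of 12422 and 9308 of 12411), tested with limma 3.58.1 in R 4.3.3 (lmFit, eBayes with trend), Benjamini-Hochberg adjusted per design; the code was tested on simulated data. The number of arrays limits the precision. Probe sets were named from the platform annotation where it gave 1 symbol (10833 and 10581); 396 and 178 had several, and 1193 and 1652 none. Of those with 1 symbol, 10821 and 10561 matched the RefSeq table (GRCm38.p6). In lists, the brightest probe set stood for a gene. The text names each member, and of each list the genes that passed or, with none, the 2 brightest. Sox10 and Clic6 were added after their values were seen. Members and lists were chosen with earlier results of these data known. Alternatives tried were no normalisation, median scaling, a floor at the 25th percentile, an offset of 16, other filters on dim probe sets, a replicate block, each set of replicate numbers alone and leaving out each sample.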

Additional observations from a re-analysis of the deposited data

Results flagged for a closer look

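In 4 groups of 6 samples, 1 sample stood apart from the others by Dixon's ratio, the gap to the nearest sample over the group's range, above its 95% critical value. The check covered each of the 21 member probe sets in each genotype, and no other probe sets. Chance alone gives such a flag in a small share of groups (about 5% of them). The lowest 2N value of Glul 161826_r_at, replicate 1, was 35.9 against 53.7 for the next sample (ratio 0.637). In Ts1Cje, the highest value of Gfap 94143_at, replicate 5, was 12.9 against 7.36 (ratio 0.69). The highest Ts1Cje value of Clu 95286_at, replicate 2, was 132 against 108 (ratio 0.69). For Aldoc 105965_at, which was not tested, Ts1Cje replicate 4 had 3.82 against 1.56 (ratio 0.842). In that group 3 of the 6 values were at the lower limit, so its ratio depends on that limit.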

How the results depend on the processing

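No member passed under any alternative tried, and the lowest adjusted p of a member was 0.896 (limma with a replicate block). That value was shared by Glul 161826_r_at, Aldoc 160546_at and Gfap 94143_at, whose differences the block leaves at 0.38, 0.17 and -0.55. After each genotype's mean was subtracted from the log2 value of every probe set, 2N and Ts1Cje samples of the same number were compared. The deviations that remained correlated by 0.016 to 0.079 (array A) and 0.012 to 0.109 (array B). The block thus treats numbers that were not shown to pair samples. Of 228 member values under alternatives other than leaving out a sample, 208 kept their sign, but part of that count was fixed in advance. Other filters, a fit without the trend and block terms leave each difference as it was, so they cannot turn a sign. All 20 values that turned came from other normalisation, floor or offset settings or from 1 set of replicate numbers alone. Of 252 values with a sample left out, 220 kept their sign. Signs turned as follows. Without normalisation the values that turned were Glul 94852_at (-0.027), Clu 95286_at (-0.053), Slc1a2 96202_at (-0.014), Fabp7 (-0.047) and Slc1a3 162814_at (0.0030). With median scaling they were Glul 94852_at (-0.0028), Clu 95286_at (-0.029) and Fabp7 (-0.023). Slc1a2 96202_at was -0.047 with the higher floor and -0.0022 with the offset. Within replicates 1 and 2 alone, Aqp4 102704_at was -0.0013, Apoe 95356_at 0.062, Fabp7 -0.037, Slc1a2 162658_at 0.029 and Slc1a3 162814_at 0.10. Within replicates 3 to 6, Aqp4 102703_s_at was 0.0035, Glul 94852_at -0.0066, Slc1a2 96202_at -0.34 Aqp4 115070_at 0.043 and the untested Apoe 161321_i_at 0.042. Leaving out 1 sample at a time gave ranges of -0.30 to 0.32 for Slc1a2 96202_at, -0.040 to 0.14 for Glul 94852_at, -0.052 to 0.055 for Clu 95286_at, -0.040 to 0.055 for Apoe 95356_at, -0.031 to 0.031 for Fabp7, -0.47 to 0.077 for Vim, -0.018 to 0.065 for Slc1a3 110824_at, -0.13 to 0.027 for Slc1a3 162814_at -0.13 to 0.035 for Slc1a2 162658_at, and, untested, -0.50 to 0.0014 for Apoe 161321_i_at and -0.54 to 0.0029 for Aldoc 105965_at. The cause was not tested. Ranges that kept their sign were 0.07 to 0.24 for Aldoc 160546_at, 0.01 to 0.20 for Aqp4 102704_at, -0.22 to -0.03 for Aqp4 102703_s_at, -0.17 to -0.02 for Aqp4 115070_at, 0.05 to 0.23 for Clu 161294_f_at, -0.20 to -0.02 for Gfap 94144_g_at, 0.11 to 0.30 for Glul 117284_at and 0.13 to 0.26 for Glul 117285_g_at. Glul 161826_r_at ranged from 0.27 to 0.46 and Gfap 94143_at from -0.72 to -0.40. For this last pair the offset, which shrinks dim values, gave 0.29 and -0.20. Dim probe sets (Vim, Gfap 94143_at, Slc1a2 96202_at) limit what can be seen.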
